A study of Mus musculus with 12 samples.

Results

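The cytosolic ribosomal protein genes were followed in cultured mouse bone-marrow-derived dendritic cells (BMDCs), a cell type that presents antigen and is raised in culture from marrow. The genes were chosen by symbol: every symbol that starts with Rpl or Rps, without the S6 kinases (Rps6k), the copies marked -ps, Rps19bp1 and Rpl7l1. This gave 88 of the 37991 genes in the count table. Of these, 45 were standard proteins of the large subunit, 31 were standard proteins of the small subunit, 8 were paralogs and 4 carried other symbols (Rpl37rt, Rps12l1, Rps3a2 and Rps3a3). The annotation (GENCODE mouse M21, GRCm38) lists 83 of the 88 as protein coding and 5 as pseudogenes: Rpl37rt, Rps12l1, Rps3a2, Rps3a3 and Rps4l. Rpl24 was not analysed here.

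RNA was sequenced from 12 libraries in 4 groups of 3, all labelled C57BL/6. Wild-type (WT) cells and cells labelled Vav1/2/3-/- (KO), which should lack the 3 Vav exchange factors that act downstream of Syk-coupled receptors, were studied at rest (unstimulated) or after 3 hours with curdlan, a glucose polymer in particles that the receptor Dectin-1 binds. Libraries are named by the numbers in the library names: WT 1, 2 and 4 in both states, KO 1, 2 and 5 unstimulated, and KO 2, 4 and 5 with curdlan. Each group was sequenced on a lane of its own, so that lane and group cannot be told apart. The sources used here do not say whether the libraries of a group came from separate mice or cultures, so p-values measure the spread between these libraries, which may be technical. The library totals ran from 41421718 to 61217861 counts.

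The 3 targeted genes were checked first. None was called lower in the libraries labelled KO, in either state. Vav2 stood at 65.0 to 70.8 CPM (counts scaled to a common library total) in unstimulated WT and at 276.0 to 287.0 CPM in unstimulated KO (log2 fold change 2.07, edgeR adjusted p = 7.45e-09). Vav1 was also higher, at 131.0 to 135.0 against 198.0 to 232.0 CPM (log2 fold change 0.67, adjusted p = 0.00021), and Vav3 stood at 21.6 to 28.9 against 31.5 to 40.0 CPM (0.48, adjusted p = 0.0225). Gene counts can include reads from outside a deleted part, so these levels do not check the deletion. KO below means the libraries labelled KO.

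A ribosome is built from ribosomal RNA and the ribosomal proteins, in a small subunit that reads the mRNA and a large subunit that joins the amino acids. Transcription of these genes is broadly matched across the family, and many of their mRNAs begin with a run of pyrimidines, the 5′ terminal oligopyrimidine (TOP) tract, through which the kinase complex mTORC1 controls their translation. RNA abundance, the quantity measured here, does not report that translation. In bulk RNA, more cells of a kind that is rich in a transcript and more of the transcript per cell cannot be told apart.

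The comparisons concern the response of these transcripts to curdlan within a genotype, the difference between those responses, and KO against WT with and without curdlan. With curdlan, the ribosomal protein transcripts were higher in KO than in WT across most of the family, and they were close to level between the genotypes without it. Together they took 2.62% to 2.94% of all counts in unstimulated WT and 2.16% to 2.36% in WT with curdlan. They took 2.42% to 2.53% in unstimulated KO and 2.23% to 2.65% in KO with curdlan. By this plain share the WT libraries with curdlan lay below the unstimulated WT libraries, and the curdlan groups of the 2 genotypes overlapped.

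After scaling by TMM factors, which align the bulk of genes between libraries, the summed level in unstimulated cells was 25640, 23510 and 24500 CPM in WT 1, 2 and 4 and 24550, 25200 and 25250 CPM in KO 1, 2 and 5. With curdlan it was 23060, 21580 and 21110 CPM in WT 1, 2 and 4, and 25600, 30590 and 28350 CPM in KO 2, 4 and 5. On this scale the 3 KO libraries with curdlan lay above the 3 WT libraries with curdlan, and KO 4 was the highest of the 12. The factors themselves ran from 1.11 to 1.15 in unstimulated WT, from 1.02 to 1.04 in WT with curdlan, from 0.986 to 1.00 in unstimulated KO and from 0.863 to 0.871 in KO with curdlan. Scaling by library size alone moved the median log2 fold change of all genes in KO against WT with curdlan from 0.01 to -0.24. The difference between the median of the ribosomal protein genes and that of all genes was 0.33 under either scaling. Scaling moves all genes of a comparison by about the same amount, so this likeness is no check of the scaling.

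**Figure D1:**
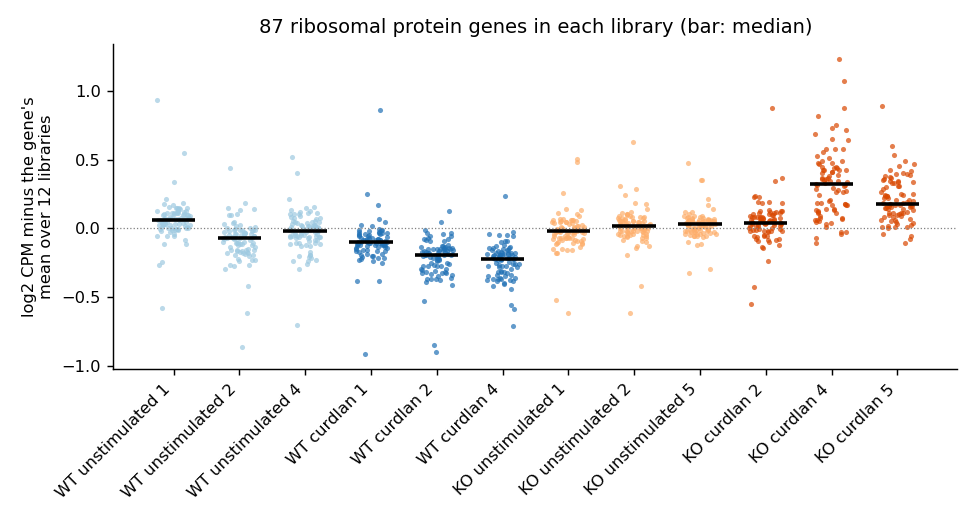
Level of 87 ribosomal protein genes in each of the 12 libraries, as log2 CPM (TMM scaled) minus the same gene's mean over all libraries; each point is 1 gene and each bar the library's median. The medians were lowest in the 3 WT libraries with curdlan (-0.10, -0.19 and -0.22) and highest in KO with curdlan libraries 4 and 5 (0.32 and 0.18), with KO with curdlan library 2 at 0.04; scaling by library size alone lowers the KO libraries with curdlan relative to the rest.

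The levels of single members spanned a wide range. Per 1000 bases of transcript, Rplp1, an acidic protein of the stalk that recruits elongation factors, was the highest at 1150 CPM averaged over the 12 libraries. Rps9, at 1040 CPM per 1000 bases, and Rpl41, the smallest ribosomal protein, at 830.0 followed. The length used was that of the annotated transcript with the longest coding part, which reached 3706 bases for Rps20, so this order depends on that choice. By CPM alone Rpl4 (1105), Rplp0 (891.4) and Rps9 (781.3) were highest. Rpl3l, a paralog of Rpl3 known from striated muscle, and Rpl39l, a paralog of Rpl39 known from testis, had 0.921 and 2.72 CPM per 1000 bases. Rpl10l, the testis copy of the X-linked Rpl10, had no count in any library, which allows at most 0.0490 to 0.0724 CPM per library (3 counts; counting error only). The other 87 members passed the filter on low counts and were tested together with 18981 genes in all.

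Of the 87 tested members, 72 were higher and 0 lower in KO than in WT with curdlan (edgeR, Benjamini-Hochberg adjusted p under 0.05), with a median log2 fold change of 0.33. Among all 18981 genes tested, 24.7% were called higher and 26.8% lower, and the median was 0.01. By edgeR's unadjusted p under 0.05, 1 member was lower. DESeq2 also called 72 higher and 0 lower, beside 4534 of 23008 genes higher and 4951 lower. With library size alone as the scaling, 27 members were higher and 9 lower, beside 2459 of all 18981 genes higher and 7921 lower. As with TMM factors, 84 of 87 lay above the median of all genes, a position that a change of scaling can hardly alter. The authors' deposited table of the same comparison gives 61 members as higher and 0 as lower at an adjusted p under 0.05, out of 87 with an adjusted p.

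Both subunits took part. With curdlan, 36 of 45 standard large-subunit genes (median 0.30) and 28 of 31 standard small-subunit genes (median 0.40) were higher in KO. Of the 7 tested paralogs 4 were higher, and so were all 4 genes with other symbols.

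The P-stalk, through which elongation factors are recruited, was among the groups that moved. Rplp2 stood at 286.1, 263.8 and 264.2 CPM in WT with curdlan and at 359.3, 603.1 and 440.9 CPM in KO with curdlan. All 3 KO libraries were above the 3 WT libraries, with KO 4 well above the others, and the log2 fold change was 0.79 (SE 0.149, edgeR adjusted p = 0.000869). Its partner Rplp1 stood at 476.3, 453.8 and 472.0 against 642.7, 834.0 and 718.7 CPM, without overlap (0.65, SE 0.092, adjusted p = 0.000108). Rplp0, the scaffold of the stalk and a frequent reference gene in quantitative PCR, stood at 803.4, 789.4 and 775.1 against 960.6, 1000 and 980.6 CPM. Its groups did not overlap and the difference was 0.31 (SE 0.0609, adjusted p = 0.00103), but with library size alone it was 0.07 (adjusted p = 0.391).

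Rps21 and Rps27, of the small subunit, were also higher in KO with curdlan. Rps21 stood at 203.1, 179.0 and 177.5 CPM in WT with curdlan and at 278.4, 419.9 and 308.7 CPM in KO with curdlan (log2 fold change 0.85, SE 0.133, adjusted p = 0.000227). The groups did not overlap, and the difference was 0.65 without KO library 4. Rps27, a zinc-finger protein of the small subunit, stood at 154.9, 141.4 and 134.4 against 208.3, 242.1 and 256.8 CPM. Its difference of 0.72 (SE 0.0895, adjusted p = 4.15e-05) again came with separate groups. Rps27rt, a retrotransposed copy, moved with it (0.72, adjusted p = 2.84e-05), and reads of such near-identical copies may be shared between them.

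Other members with known extra roles were higher in KO with curdlan too. Rpl38, known for its part in the translation of Hox mRNAs, stood at 117.0, 101.1 and 95.95 CPM in WT and 129.0, 206.4 and 164.9 CPM in KO, with groups apart (0.67, SE 0.143, adjusted p = 0.00186). Rps27a, made as a fusion with ubiquitin, had a log2 fold change of 0.55 (adjusted p = 0.00169). Rpl13a, known for translational silencing in interferon-treated myeloid cells, had 0.44 (adjusted p = 0.00289), and Rps19, a Diamond-Blackfan anaemia gene, had 0.40 (adjusted p = 0.00178). Rps25, known for a part in internal initiation, had 0.27, and Rpl10, which joins the large subunit late, had 0.25. Rpl5, which carries 5S rRNA together with Rpl11, had 0.19 (adjusted p = 0.0394). Rps6, the substrate of the S6 kinases, had the smallest difference of those called, 0.16 (adjusted p = 0.0473).

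The other 15 members were not called with curdlan. Rpl11, which with Rpl5 can bind Mdm2, stood at 196.8, 195.5 and 183.6 CPM in WT and 197.1, 190.2 and 199.1 CPM in KO. The groups overlapped and the difference was 0.03 (SE 0.0577, adjusted p = 0.729). Rpsa, a small-subunit protein also known as the laminin receptor, stood at 642.5, 608.4 and 602.1 against 591.7, 638.5 and 643.5 CPM, also overlapping (0.02, adjusted p = 0.85). Rps2, Rps18, Rpl6, Rpl3, Rpl23a, Rpl32 and Rpl22l1 likewise had differences between -0.06 and 0.05. Rpl41 had 0.22 (adjusted p = 0.0967), and Rpl39l, with 0.726 to 2.85 CPM in the 6 libraries, had 0.40 with an SE of 0.511. Rpl3l, at 1.33 to 1.45 CPM in WT and 0.833 to 1.27 CPM in KO, had the lowest difference, -0.38 (SE 0.164, adjusted p = 0.0698), with separate groups. The low counts of Rpl39l left its difference undetermined at this depth.

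**Figure D2:**
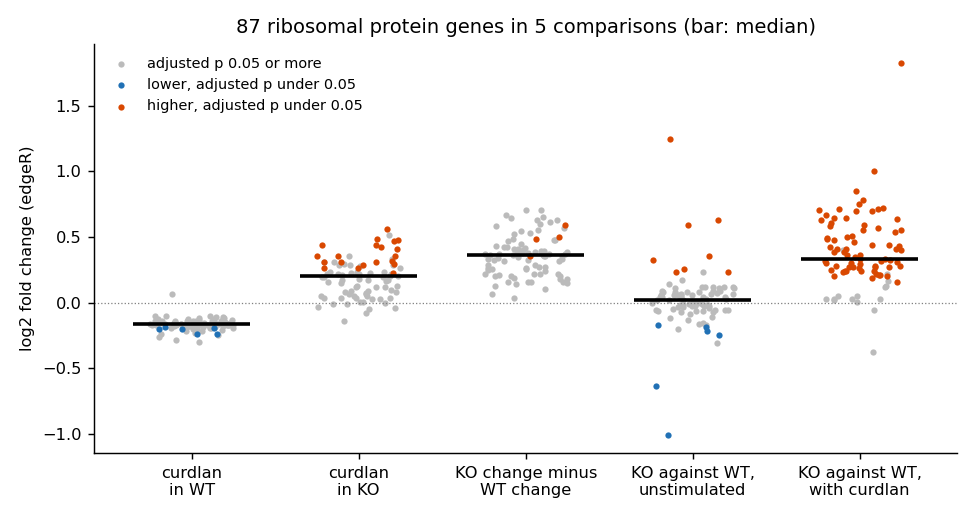
log2 fold change (edgeR, TMM scaled) of 87 ribosomal protein genes in each of 5 comparisons; each point is 1 gene, colour gives the call at an adjusted p of 0.05 and bars are medians. The medians were -0.17, 0.20, 0.36, 0.02 and 0.33 from left to right, and with library size alone they were -0.30, 0.00, 0.30, -0.16 and 0.09.

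Without curdlan the genotypes differed in single members and not as a family. Of the 87 members, 8 were higher and 6 lower in KO, against 21.1% of all genes higher and 23.3% lower, and the median was 0.02. Without unstimulated WT library 2 or 4, or KO library 1 or 2, the count higher was 5. With library size alone 3 were higher and 34 lower, with the median at -0.16 beside -0.19 for all genes. That scaling called 2551 of all 18981 genes higher and 7104 lower. The members that differed most were Rps4l, Rpl30 and Rpl29 on the higher side and Rpl3l and Rpl22l1 on the lower side.

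Rps4l, a processed copy of the X-linked Rps4x on chromosome 6, stood at 3.35, 2.75 and 3.08 CPM in unstimulated WT and at 7.10, 7.75 and 6.96 CPM in unstimulated KO. With curdlan it stood at 2.66, 2.78 and 3.07 CPM in WT and at 9.21, 11.8 and 9.30 CPM in KO. The genotypes did not overlap in either state, with log2 fold changes of 1.25 (SE 0.119, adjusted p = 5.35e-06) and 1.83 (SE 0.122, adjusted p = 3.51e-07). Its counts were 0.52% of those of Rps4x in unstimulated WT and 1.23% in unstimulated KO. With curdlan these ratios were 0.55% and 1.61%.

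Rpl30, a large-subunit protein that also binds selenocysteine insertion elements, stood at 134.6, 121.0 and 131.9 CPM in unstimulated WT and at 193.3, 200.7 and 206.5 CPM in unstimulated KO (0.63, SE 0.0797, adjusted p = 4.71e-05). With curdlan it stood at 124.4, 112.3 and 110.1 against 208.9, 241.4 and 245.8 CPM, a difference of 1.00 (SE 0.0802, adjusted p = 1.41e-06). Rpl29, a heparin-binding large-subunit protein, stood at 81.3, 84.2 and 83.1 against 134.6, 117.5 and 122.9 CPM without curdlan (0.59, SE 0.0688, adjusted p = 2.44e-05). With curdlan it stood at 73.8, 73.7 and 73.3 against 122.7, 109.2 and 108.8 CPM (0.63, SE 0.069, adjusted p = 1.57e-05). Both genes were separate between the genotypes in both states. Rps27 (0.32), Rps27rt (0.36), Rplp1 (0.25) and Rps29 (0.24) were also higher.

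Rpl22l1, the paralog of Rpl22, stood at 47.8, 43.0 and 49.9 CPM in unstimulated WT and at 26.4, 33.1 and 30.9 CPM in unstimulated KO (log2 fold change -0.64, SE 0.134, adjusted p = 0.00194), without overlap. With curdlan the groups overlapped at 42.6, 35.6 and 37.2 against 32.1, 47.3 and 36.4 CPM, with a difference of 0.00 (SE 0.134). Rpl22 protein is known to repress Rpl22l1. Rpl22 RNA itself was at 192.2 ± 14.1 CPM (SD, n = 3) in unstimulated WT and 198.4 ± 4.87 CPM in unstimulated KO (0.05, adjusted p = 0.722). As a ratio to the Rpl22 counts, the Rpl22l1 counts were at 23.2% to 25.8% in unstimulated WT and at 21.1% to 23.8% in WT with curdlan. They were at 13.7% to 16.6% in unstimulated KO and at 15.9% to 18.9% in KO with curdlan, below WT in both states.

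Rpl3l was also lower in unstimulated KO, at 1.78, 1.65 and 1.75 CPM in WT and 0.795, 0.794 and 0.970 CPM in KO (-1.01, SE 0.159, adjusted p = 0.000262). Its main gene Rpl3, a protein of the peptidyl transferase centre, stood at 333.5, 338.6 and 358.6 against 290.3, 299.9 and 298.3 CPM (-0.21, SE 0.0624, adjusted p = 0.0143). That call did not pass without WT library 4 (adjusted p = 0.0632) or without KO library 1 (adjusted p = 0.0516). Rpsa stood at 690.4, 666.6 and 682.9 against 574.7, 564.4 and 582.0 CPM (-0.25, SE 0.064, adjusted p = 0.00772). Rps18 (-0.19) and Rps2 (-0.17) completed the 6 that were lower.

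**Figure D3:**
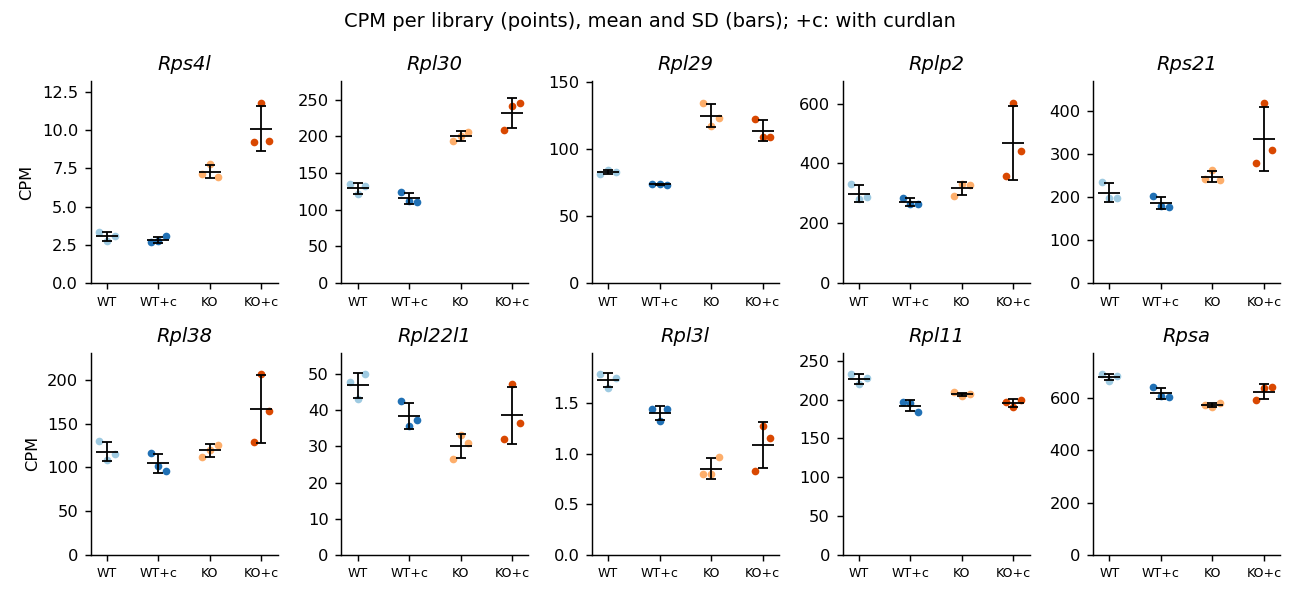
CPM (TMM scaled) of 10 members in each library; points are libraries and bars the mean and SD of 3, with WT and KO unstimulated and +c marking curdlan. Rps4l, Rpl30 and Rpl29 were higher in KO in both states, Rplp2, Rps21 and Rpl38 rose with curdlan in KO (not called with library size alone), and Rpl22l1 and Rpl3l were lower in unstimulated KO.

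Among the other paralogs, the ratio of Rps27l, a p53-inducible copy of Rps27, to its main gene separated the genotypes. Its counts were 63.6% to 69.9% of those of Rps27 in unstimulated WT and 77.2% to 80.2% in WT with curdlan. In KO they were 50.5% to 58.3% without and 51.2% to 62.7% with curdlan, below WT in both states. Rps27l RNA itself was not called between unstimulated genotypes (0.03, adjusted p = 0.793), while Rps27 was higher in KO. Rpl36al, the paralog of Rpl36a, was at 59.6% to 64.0% of its main gene in unstimulated WT and at 63.7% to 69.2% in the other 3 groups. These ratios are descriptions and were given no test.

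**Figure D4:**
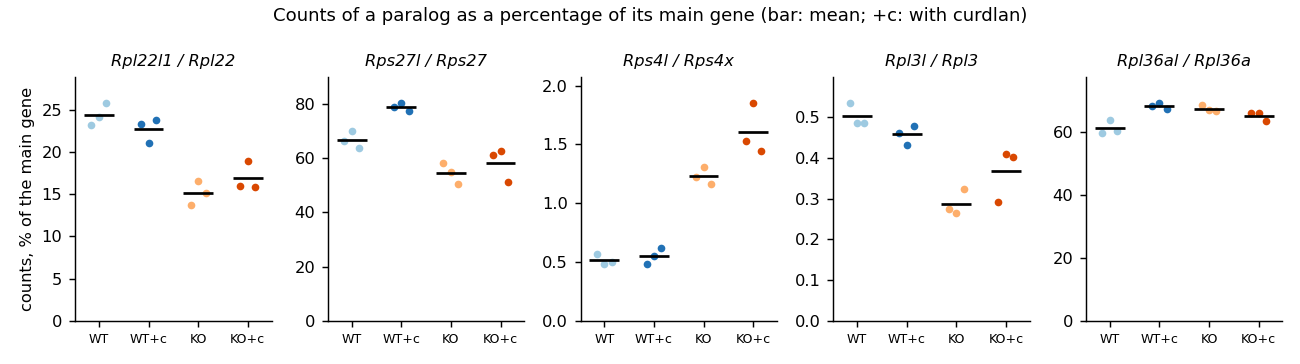
Counts of a paralog as a percentage of the counts of its main gene in each library, for 5 pairs; points are libraries, bars are means of 3, and +c marks curdlan. The ratios of Rpl22l1 and Rps27l to their main genes were lower in every KO library than in every WT library of the same state, and the ratio of Rps4l was higher.

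With curdlan and TMM factors, most members had values below 0 in WT and above 0 in KO (78 of 87 had both), by small amounts. Of these, 0 passed the threshold in both genotypes. Of all 18981 genes, 10313 were below 0 in WT and 9333 above 0 in KO, and those with both were not counted. With library size alone the members' median in KO was 0.00, so their position above 0 in KO depends on the scaling. In WT, 6 of 87 members were lower and 0 higher with curdlan, against 8.4% of all genes lower and 11.4% higher. The median was -0.17 beside -0.03 for all genes, and 86 of 87 point values were below 0. By edgeR's unadjusted p under 0.05 and by DESeq2 the count higher was also 0. DESeq2 called 20 lower, beside 1783 of 18145 genes. The WT numbers may pair the libraries, which was not settled. With the replicate number as a block 60 members were lower, beside 3750 of 18981 genes. With the numbers that the authors' comparison table gives the same WT libraries, that fit called 11, beside 2162 genes. Library size alone gave 69 lower and 0 higher, beside 4589 of all 18981 genes lower and 1534 higher.

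Among the called members were Rpl11, Rpl21, Rps2, Rpl31 and Rpl28. Rpl11 stood at 232.4, 219.5 and 227.6 CPM in unstimulated WT and at 196.8, 195.5 and 183.6 CPM with curdlan (-0.24, SE 0.0577, edgeR adjusted p = 0.012). Rps2, a protein near the mRNA entry channel, stood at 320.5, 318.8 and 316.8 against 283.0, 282.2 and 265.4 CPM (-0.20, SE 0.0608, adjusted p = 0.0339). Neither gene's groups overlapped. Without WT curdlan library 4 the count was 0, and Rpl11 had -0.21 (adjusted p = 0.0617). It was 1 without WT curdlan library 2, unstimulated WT library 4 or KO curdlan library 5, and 2 without unstimulated WT library 1 or 2 or unstimulated KO library 1.

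In KO, 20 of 87 members were higher and 0 lower with curdlan, against 14.0% of all genes higher and 14.6% lower. Library size alone gave 0 higher and 13 lower, beside 1326 of all 18981 genes higher and 6073 lower. With TMM factors the median was 0.20 beside 0.00 for all genes, and with library size alone the 2 medians were 0.00 and -0.20. By unadjusted p no member was lower either. DESeq2 called 30 higher and 0 lower, beside 2698 of 19225 genes higher and 2875 lower. Among called members whose groups did not overlap, the largest changes were those of Rplp2, Rpl38, Rps4l, Rps21, Rps28 and Rps24. Rplp2 stood at 291.3, 332.4 and 327.6 CPM in unstimulated KO and rose to 359.3, 603.1 and 440.9 CPM (0.56, SE 0.149, edgeR adjusted p = 0.0145). Rpl38 stood at 111.9, 120.3 and 125.8 CPM and rose to 129.0, 206.4 and 164.9 CPM (0.48, SE 0.142, adjusted p = 0.0246). Rps21 stood at 241.8, 262.4 and 238.9 CPM and rose to 278.4, 419.9 and 308.7 CPM (0.44, SE 0.132, adjusted p = 0.0271).

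In each of these 3 genes the 2 groups were separate, KO curdlan library 2 lay just above the unstimulated libraries and library 4 was highest. The count of 20 was 7 with the replicate block, 0 with the block by the comparison table's numbers and 1 with the 2 KO groups fitted alone. The comparison table numbers the KO libraries as the count table does, so these 2 blocks differ in the WT pairs only. In both blocks the KO change rests on KO 2 and 5, since KO 1 and KO curdlan library 4 have no partner. With the second block Rplp2 had 0.27. The count of 20 also depended on single libraries. It was 2 without KO curdlan library 4 or without unstimulated KO library 1, 52 without KO curdlan library 2, and 6 without KO curdlan library 5. Among all genes, the fit without KO curdlan library 2 called 3038 of 19267 higher. Leaving out unstimulated KO library 2 or 5 or WT curdlan library 2 gave 7, 10 and 12. Rplp2 had 0.33 without KO curdlan library 4 and 0.72 without KO curdlan library 2.

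The change in KO minus the change in WT was above 0 for all 87 members, with a median of 0.36 beside 0.00 for all genes. Under each of the 5 other scalings or tools 87 of 87 lay above the median of all genes. A change of scaling moves all genes by about the same amount, so this count could hardly change and is no check of the scaling. The comparison of changes called 4 members higher and 0 lower, against 1.61% of all genes higher and 3.6% lower. By unadjusted p no member was lower, and DESeq2 called 49 higher and 0 lower. Among all 14902 genes that DESeq2 tested here, 873 were higher and 1293 lower. The 4 were Rpl35a, a Diamond-Blackfan anaemia gene (0.59, SE 0.157, adjusted p = 0.0496), Rpl27a (0.50, SE 0.129, adjusted p = 0.045), Rpl27 (0.49, SE 0.126, adjusted p = 0.0462) and Rpl10a (0.35, SE 0.0933, adjusted p = 0.0492).

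Rpl27a stood at 264.0, 231.0 and 247.3 CPM in unstimulated WT and at 231.4, 211.5 and 207.3 CPM in WT with curdlan, with overlap. In KO it stood at 255.4, 261.9 and 269.5 CPM without and 282.0, 361.6 and 330.3 CPM with curdlan, without overlap. The 4 calls were near the threshold. Without any 1 library other than KO curdlan library 2 the count was 0. Without KO curdlan library 2 it was 57, beside 1323 of 19267 genes higher. With the replicate block it was 32, beside 1059 of 18981 genes higher. With the numbers of the authors' comparison table it was 0, beside 203 genes higher.

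The size of the difference varied with coding length. Among 82 tested members with an annotated coding length, Spearman's rho between that length and the log2 fold change in KO against WT with curdlan was -0.47. It was -0.54 for curdlan in KO, 0.02 for curdlan in WT and -0.18 for KO against WT without curdlan. These are correlations across genes of the same 12 libraries, given as descriptions. With curdlan the median difference between the genotypes was 0.43 for the 49 members under 500 bases, 0.28 for the 30 members from 500 to under 1000 bases and -0.06 for the 3 longer members. The other genes had medians of 0.15 (1186 genes), 0.05 (3230 genes) and -0.11 (9390 genes) in the same ranges. Lengths and differences moved together in other genes too, and the part of length in the members' differences was not tested.

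**Figure D5:**
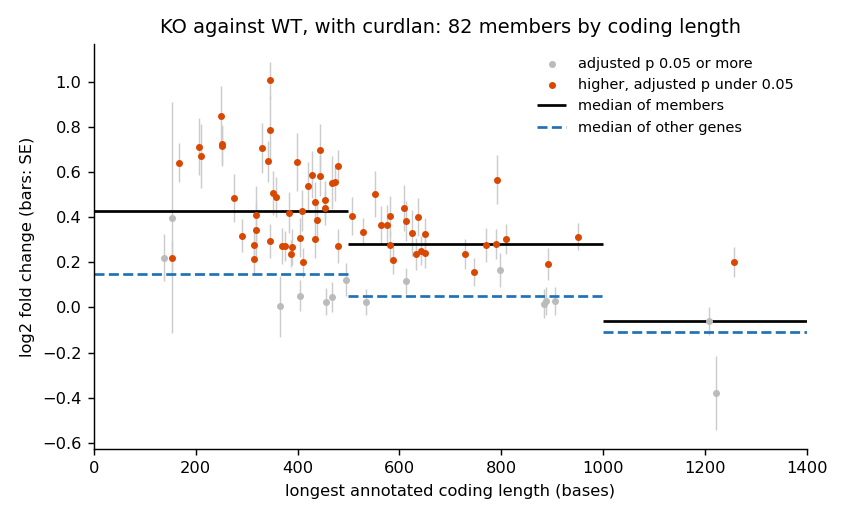
log2 fold change in KO against WT with curdlan (edgeR, TMM scaled) against coding length in bases for 82 ribosomal protein genes; bars are SE, solid lines medians of the members and dashed lines medians of other genes, in 3 ranges of length. The medians of the members were 0.43, 0.28 and -0.06 and those of other genes 0.15, 0.05 and -0.11; with library size alone the median of all genes was -0.24 in place of 0.01.

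The starts of the genes are shown because their pyrimidine tract is the sequence feature the family is known for. RefSeq promoter windows (GRCm38.p6) were matched for 64 of the 88 members by symbol. Each line gives 30 bases before and 20 bases from the annotated start, 5′ to 3′ on the strand of transcription. Where a gene had more than 1 window, the one with the longest run is shown. Rps21 and Rps24 had 2 windows each, Rpl35a had 3 and the other genes shown had 1. This choice could therefore favour a run only in genes that were higher in KO. Capitals mark the longest run of C followed by at least 4 further C or T that begins within 10 bases of the start, searched on that strand only. The first 6 genes were higher in KO than in WT with curdlan, and the last 4 were not called in that comparison.
Rplp2: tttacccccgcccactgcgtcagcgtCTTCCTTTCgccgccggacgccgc
Rps21: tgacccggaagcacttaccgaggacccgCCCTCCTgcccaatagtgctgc
Rpl38: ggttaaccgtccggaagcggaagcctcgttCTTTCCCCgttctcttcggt
Rps24: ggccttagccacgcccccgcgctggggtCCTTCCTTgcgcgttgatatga
Rpl27a: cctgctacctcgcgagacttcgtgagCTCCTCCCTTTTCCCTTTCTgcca
Rpl35a: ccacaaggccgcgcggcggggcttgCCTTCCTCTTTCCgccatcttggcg
Rps2: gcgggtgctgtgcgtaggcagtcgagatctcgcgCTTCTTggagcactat
Rpl22l1: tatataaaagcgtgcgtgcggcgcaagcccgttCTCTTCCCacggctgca
Rpl11: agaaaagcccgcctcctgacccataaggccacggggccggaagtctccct
Rpsa: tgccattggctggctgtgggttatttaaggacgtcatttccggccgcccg
The windows lie at chr7:141447621-141447670 (Rplp2), chr2:180257349-180257398 (Rps21), chr11:114668550-114668599 (Rpl38), chr14:24490648-24490697 (Rps24), chr7:109519165-109519214 (Rpl27a), chr16:33056452-33056501 (Rpl35a), chr17:24720033-24720082 (Rps2), chr3:28805478-28805527 (Rpl22l1), chr4:136053374-136053423 (Rpl11) and chr9:120127736-120127785 (Rpsa); Rpl11 is on the minus strand and the other 9 on the plus strand. In Rpl11 and Rpsa no such run began within 10 bases of the annotated start, which says only that these letters are not in that window. Over all matched members, 40 of 64 (62.5%) held the run in at least 1 window, against 9297 of 27025 genes (34.4%) in the same table. It was present in 30 of the 51 matched members that were higher in KO with curdlan and in 10 of the other 13, which include Rpl10l, a gene with no count and no test. Rpl38 (8 bases) and Rpl22l1 (8 bases) both held it, while the first was higher in KO with curdlan and the second overlapped between the genotypes.

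Many members share sequence with copies that the rule left out. The table held 195 symbols of -ps copies, of which 163 passed the filter. In KO against WT with curdlan 113 of these were higher and 2 lower (median 0.31), beside 24.7% and 26.8% of all genes. With curdlan against without, 6 of the 163 were lower in WT and 18 were higher in KO, beside 8.4% and 14.0% of all genes. The -ps copies took a median of 23.9% of the counts of the 56 families that have them, up to 53.7% for Rpl31 and 54.1% for Rpl23a. Rps3a3, a pseudogene copy, had counts equal to 77.8% to 81.5% of those of Rps3a1 in 10 libraries and to 96.7% and 88.3% in KO curdlan libraries 4 and 5. The sources used here do not say how reads matching more than 1 copy were counted, so values of members with such copies are uncertain.

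Genes of the same machinery were read from lists of known genes. Among ribosomal proteins outside the symbol rule, Fau, which encodes the small-subunit protein eS30 as a fusion, was higher in KO in both states. It stood at 378.5, 317.7 and 329.6 CPM in unstimulated WT, 338.6, 309.7 and 336.6 in WT with curdlan, 419.2, 425.4 and 406.8 in unstimulated KO and 454.2, 605.2 and 502.9 in KO with curdlan. The log2 fold changes were 0.29 (adjusted p = 0.0373) and 0.67 (adjusted p = 0.000199). Gnb2l1, which encodes the scaffold Rack1, was higher in KO with curdlan (0.17, adjusted p = 0.034).

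Of 22 elongation factors and other transcripts with a TOP tract, 7 were higher and 3 lower in KO with curdlan (median 0.09), and 0 were higher and 5 lower without it (median -0.10). Among all genes 24.7% were higher and 26.8% lower with curdlan, and 21.1% and 23.3% without it. By unadjusted p no gene of the list was higher without curdlan, and DESeq2 called 1 higher. Eef1b2, an exchange factor for elongation factor 1, was higher with curdlan (0.56, adjusted p = 0.000627), while Eef1a1 (0.17, adjusted p = 0.0931) and Eef2 (-0.19, adjusted p = 0.119) were not called. Gas5, a TOP RNA that hosts small nucleolar RNAs, fell with curdlan in WT (-0.45, adjusted p = 0.0188) and had 0.20 in KO (adjusted p = 0.232). Its changes differed by 0.65 (adjusted p = 0.0455).

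The mitochondrial ribosomal proteins belong to a separate ribosome. Of 74 tested, 47 were lower and 0 higher in unstimulated KO (median -0.33, with 0 higher by unadjusted p and by DESeq2), and 30 were lower and 4 higher with curdlan (median -0.15). Among all genes 23.3% were lower and 21.1% higher without curdlan, and 26.8% and 24.7% with it. In WT 23 were lower and 1 higher with curdlan, beside 8.4% and 11.4% of all genes. In KO 14 were lower and 6 higher, beside 14.6% and 14.0%. Mrps27, of the mitochondrial small subunit, stood at 8.16, 8.09 and 8.49 CPM in WT with curdlan and 4.41, 4.20 and 3.90 CPM in KO with curdlan (-0.98, SE 0.0798, adjusted p = 1.64e-06). Its groups were separate, in the direction opposite to most cytosolic members.

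Ribosome biogenesis factors were on balance lower in KO, with 20 of 53 lower and 6 higher without curdlan and 19 lower and 9 higher with it (medians -0.13 and -0.10). For this list and the lists below, the shares among all genes were 23.3% lower and 21.1% higher without curdlan. With curdlan they were 26.8% lower and 24.7% higher. Imp3, of the small-subunit processome, had -0.67 and -0.58 (adjusted p = 1.01e-05 and 3.79e-05), and Polr1b, a subunit of RNA polymerase I, had -0.65 and -0.64. Of 32 initiation factors, 8 were higher and 5 lower in unstimulated KO and 11 were higher and 6 lower in KO with curdlan. Eif1, which guards start codon choice, rose with curdlan in KO (0.70, adjusted p = 0.000421) and not in WT (0.02, adjusted p = 0.922), and its changes differed by 0.68 (adjusted p = 0.0214). Of 19 S6 kinases and mTORC1 genes, 5 were higher and 2 lower in unstimulated KO (median 0.13). In KO with curdlan 4 were higher and 8 lower (median -0.22). Mtor, the kinase of mTORC1, was among the lower with curdlan (-0.95, SE 0.186, adjusted p = 0.00109).

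The cultures of the 2 genotypes also differed in markers of other cells. Of all genes tested, 21.1% were called higher and 23.3% lower in unstimulated KO, and 24.7% and 26.8% with curdlan. In KO the summed level of 9 B cell markers was 1.37 to 1.82 CPM over both states, against 44.8 to 57.8 CPM in WT, and all 8 tested were lower. The 10 markers of cycling cells were all lower in KO in both states, with summed levels of 501.0 to 538.0 CPM in KO with curdlan against 921.0 to 996.0 CPM in WT with curdlan. Of 11 macrophage markers 9 and 8 were higher in KO without and with curdlan (2280 to 2830 CPM in WT and 8090 to 9440 CPM in KO). Of 12 neutrophil markers 10 were higher in each state (4220 to 6200 against 6410 to 11000 CPM), and of 8 tested mast cell and basophil markers 7 (43.3 to 57.8 against 184.0 to 325.0 CPM). Of 8 stromal markers 6 were higher in KO in each state (29.9 to 37.2 against 44.6 to 56.2 CPM). T and NK cell markers (6.27 to 6.91 against 2.98 to 5.43 CPM) and erythroid markers (0.479 to 1.21 against 0.830 to 3.14 CPM) were near 0 in all libraries. The dendritic cell markers were present in all libraries, at 4730 to 5410 CPM in WT and 7700 to 11700 CPM in KO, but of 12 tested 6 were higher and 3 lower in unstimulated KO and 5 higher and 4 lower with curdlan. The part of these differences in the results on ribosomal protein genes was not tested.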

How the data were processed

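Read counts per gene of 12 libraries were analysed as the authors deposited them. Per the labels' protocols, RNA was made into TruSeq RNA libraries. Per the submitters' processing notes, FastQC 0.11.1, TopHat2 2.4.2a, SAMtools 1.2, featureCounts 1.4.6 and DESeq2 1.8.2 were used. The sources used here name no genome build, counting annotation, strand setting or rule for multiply matching reads. The labels give curdlan as 200 mg/ml, a unit that could not be checked.

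Counts were fitted in edgeR 4.0.16 (R 4.3.3, limma 3.58.1) in 1 quasi-likelihood model of the 4 groups, with TMM factors and filterByExpr. Benjamini-Hochberg adjustment ran over 18981 genes, with a threshold of 0.05. The model was tested on simulated data. DESeq2 1.42.0, other scalings and filters, a replicate block and leaving out each library were alternatives. The block was the number within a genotype for the curdlan changes and their difference, and the number alone for KO against WT. CPM are TMM scaled.

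The authors' deposited table of KO against WT with curdlan gives log2 fold changes and adjusted p-values, used only where named. Of the 24 columns of per-library values in the deposited comparison tables, the raw counts of the curdlan libraries served only to match library numbers. The others were not used. The members and gene lists were chosen with earlier results of these data known. Genes are named from a panel of stalk proteins, proteins with known extra roles and paralog pairs, and from the 6 largest called changes with separate groups in each direction and comparison. The 5 highest and lowest levels, members failing the filter, and up to 3 genes per other list were also eligible. Some genes that this rule names are not reported here.

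Same-numbered WT libraries deviated together across genes (correlations 0.39, 0.24 and 0.13), so the numbers may pair them. Differently numbered WT libraries of the 2 states had -0.29 to 0.08. The 2 KO pairs that share a number also deviated together (0.29 and 0.56), too few to settle pairing by correlation. Differently numbered KO libraries of the 2 states had -0.47 to 0.25. WT and KO libraries of 1 number did not deviate together (-0.15 to 0.08). The deposited comparison table numbers the WT curdlan libraries 4, 1 and 2 where the count table has 1, 2 and 4, so the WT pairing was not settled. The WT pairs by that numbering had correlations of -0.16, -0.25 and 0.08. Libraries of a group differed beyond sampling noise (chi-square per degree of freedom 9.15 to 77.1), and none were merged.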

Additional observations from a re-analysis of the deposited data

Results flagged for a closer look

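The change with curdlan differed between the genotypes for 4 ribosomal protein genes by a test of the difference itself (edgeR, adjusted p just under 0.05), given as the log2 change in KO minus that in WT. Rpl10a differed by 0.352, with -0.19 in WT and 0.16 in KO. Rpl27 differed by 0.486, with -0.17 in WT and 0.32 in KO. Rpl27a differed by 0.499, with -0.19 in WT and 0.31 in KO. Rpl35a differed by 0.59, with -0.24 in WT and 0.35 in KO. None of the 4 passed with library size alone, or without any 1 library other than KO curdlan library 2. With the replicate block by the comparison table's numbers none passed either. Among all genes 1.61% were called higher and 3.6% lower in this comparison.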

How the results depend on the processing

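Library size alone moved the most results. It gave medians of -0.30 for curdlan in WT, 0.00319 for curdlan in KO, -0.162 for KO against WT unstimulated and 0.0887 with curdlan. In the order higher and lower, it called 0 and 69, 0 and 13, 3 and 34, and 27 and 9 members, and 0 for the difference of the changes. Of all 18981 genes it called 1534 and 4589, 1326 and 6073, 2551 and 7104, 2459 and 7921, and 207 and 1114. Upper-quartile scaling gave 19 lower with curdlan in WT, 5 higher in unstimulated KO and a median there of -0.0143. With no filter on low counts, 1 was lower with curdlan in WT, 13 were higher with curdlan in KO, 1 differed in its change and 5 were higher in unstimulated KO. RLE scaling and TMM without the members each left 2 of the 4 differing changes, the strict filter gave 10, and DESeq2 gave 49 and, for curdlan in WT, 20 lower. The 2 KO groups fitted alone gave 1 higher with curdlan.

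With the replicate number within a genotype as a block, 60 members were lower with curdlan in WT, 7 higher in KO and 32 differed in their change. A block by the number alone, shared by WT and KO, gave 1 lower in KO than WT with curdlan. WT and KO libraries of 1 number did not deviate together. With the comparison table's numbers, a fit chosen after seeing the data, the first 3 counts were 11, 0 and 0. Those numbers change the WT pairs only.

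Leaving out 1 library gave 0 to 8 lower with curdlan in WT, 2 to 52 higher and 0 to 1 lower with curdlan in KO, and 0 to 57 differing changes. The genes called higher among all in that last comparison ran from 85 to 1323. Leaving out 1 library gave 5 to 8 members higher in unstimulated KO, with a median of -0.0199 to 0.0559. In KO with curdlan it gave 59 to 74 higher and 0 to 1 lower. Without the 10 most abundant other genes the shares of counts were 3.03%, 2.44%, 2.72% and 2.66% (WT, WT with curdlan, KO, KO with curdlan), and the standard members alone took 2.4% in unstimulated KO. Of 548 refits of 26 single-gene values, 457 kept their side of the threshold, 91 lost it and 0 reversed. Low counts limit Rpl3l, Rpl39l and Rps4l. The causes were not tested.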
